A study of Mus musculus with 4 samples.

Results

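The GDNF family comprises 4 secreted ligands, Gdnf, Nrtn, Artn and Pspn, their 4 co-receptors Gfra1, Gfra2, Gfra3 and Gfra4, and the shared receptor tyrosine kinase Ret. All 9 genes were taken by symbol from the annotation of an Illumina mouse BeadChip. They are represented by 17 of its 45281 probes, and by 9 of its 19057 named genes. The mice were NC/Nga males aged 9 weeks, and RNA was taken from their cervical cord. Mice of this inbred strain acquire skin lesions like those of atopic dermatitis in an ordinary animal room. The SPF group (2 arrays) was housed free of specific pathogens and had a normal phenotype, and the conventional group (2 arrays) was housed conventionally and had the dermatitis phenotype. No other agent or allele is named in the labels, so housing and disease cannot be told apart. Nothing in the labels says whether the arrays of a group are separate animals. The model's p-values, standard errors and intervals rest on the spread between these arrays, with each probe's variance drawn toward that of probes of similar level.

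A GDNF family ligand acts as a dimer that first binds a GFRA protein anchored in the membrane, and the complex then activates RET. The preferred pairs are GDNF with GFRA1, neurturin (Nrtn) with GFRA2, artemin (Artn) with GFRA3 and persephin (Pspn) with GFRA4. In spinal cord, Ret is known as a gene of motor neurons, for which GDNF is a survival factor, and Ret and Gfra genes also mark classes of sensory neurons in the dorsal root ganglia, whose axons end in the dorsal horn. The comparison asks whether transcripts of this signalling system differ in the cord that receives input from inflamed skin.

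A probe counted as detected where its deposited detection p, a comparison with the negative-control beads of the same array, was under 0.05. That p is given below as the detection value. Detected probes numbered 20334 to 20960 per array, or 44.9% to 46.3% of all probes. Of the 17 member probes, 6 were detected on at least 2 of the 4 arrays, where 21065 of all 45281 probes were. These 6 probes represent 4 of the 9 genes: Ret (2 of 3 probes), Artn (2 of 4 probes), Gfra4 (its only probe) and Nrtn (its only probe). By role, they are 3 of 9 ligand probes, 1 of 5 co-receptor probes and 2 of 3 Ret probes. SPF replicates 1 and 2 had 6 and 7 detected member probes, and conventional replicates 1 and 2 had 7 and 5. Of the 11 other probes, 9 were detected on no array and 2 on 1 array. As a check of the labelled level of the cord, 9 of 11 Hox genes of cervical and brachial levels were kept, and 2 of 8 of lumbar and sacral levels.

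**Figure D1:**
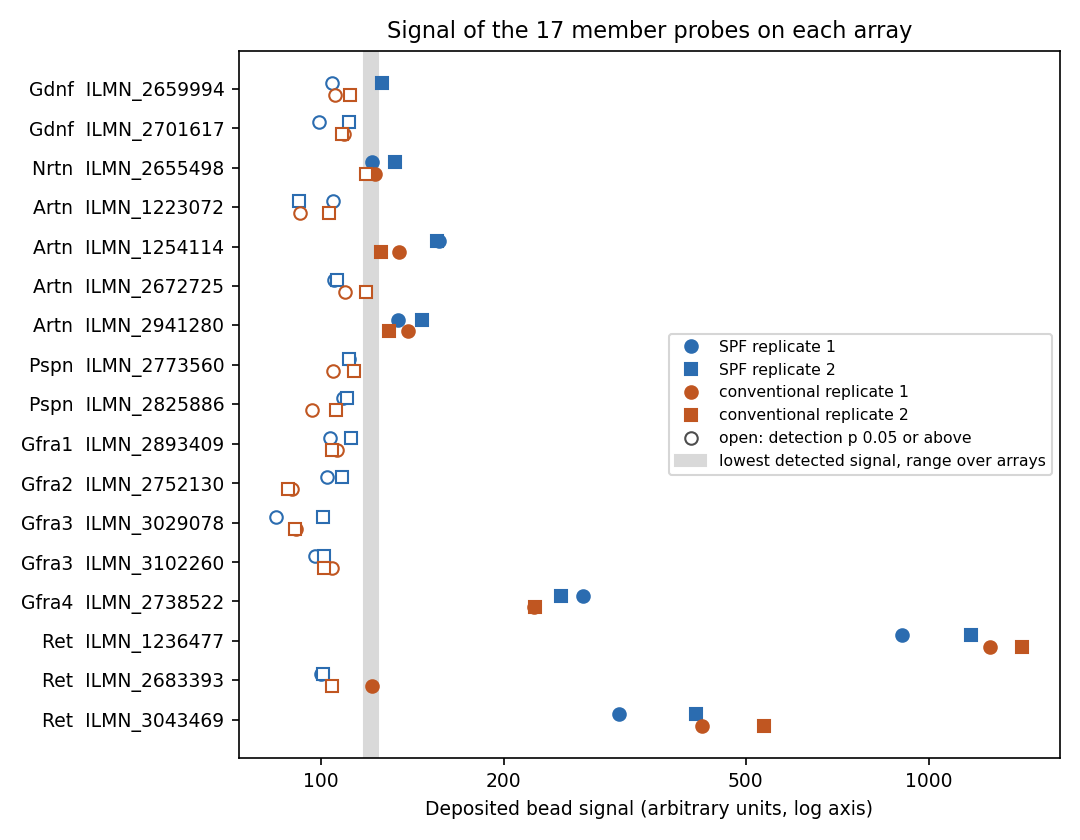
Deposited bead signal (arbitrary units, log axis) of the 17 member probes on each of the 4 arrays, with filled points where the detection p was under 0.05 and the lowest detected signal per array (117.8 to 124.4) as a grey band. Ret ILMN_1236477, Ret ILMN_3043469 and Gfra4 stand clear of the band, the detected Artn and Nrtn probes lie close to it, and the remaining probes lie mostly to its left.

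Ret, the kinase through which all 4 ligands signal, was well above background on every array and was the only detected member whose signal was above both SPF arrays on both conventional arrays. Probe ILMN_1236477 gave signals of 903.4 and 1172.4 on SPF replicates 1 and 2 and of 1263.7 and 1427.4 on conventional replicates 1 and 2. These were 8.80 to 13.6 times the signal at a detection p near 0.5 on the same array, a measure of the array's background. Probe ILMN_3043469 gave 309.4 and 414.5 on the SPF arrays and 423.8 and 536.7 on the conventional arrays, which is 3.01 to 5.10 times background. On both probes SPF replicate 1 was the lowest array and conventional replicate 2 the highest, and the groups did not overlap. The gap between SPF replicate 2 and conventional replicate 1 was small beside the gap between replicates of a group.

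After normalization to the log2 scale, ILMN_1236477 had means of 9.84 ± 0.31 in SPF and 10.32 ± 0.16 in conventional cord (SD, n = 2 arrays per group). The difference, conventional minus SPF, was 0.48 ± 0.17 (standard error of the model), a 1.40-fold higher mean with a 95% interval of 1.05 to 1.85. For ILMN_3043469 the means were 8.03 ± 0.41 and 8.64 ± 0.33, and the difference was 0.61 ± 0.25, or 1.53-fold with an interval of 1.03 to 2.28. Neither passed limma's test adjusted over 21065 probes (adjusted p = 0.99996 for each), in which 0 probes, or 0% of those tested, passed. The unadjusted p-values in the limma fit were 0.0260 and 0.0400. These p-values and the intervals rest partly on variance borrowed from other probes. An exact permutation test of the arrays alone gave p = 0.333 for each probe. Both probes target the same gene, so they are not independent measurements of the change.

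The platform annotation assigns both bright Ret probes to the RefSeq transcript NM_001080780 and the remaining probe, ILMN_2683393, to NM_009050. That probe gave 100.1 and 100.9 on the SPF arrays and 121.2 and 104.2 on the conventional arrays. It was detected only on conventional replicate 1 (detection value 0.0289) and was not tested. A difference between the 2 transcripts cannot be read from this, because a probe's brightness also depends on its own sequence. The size of the Ret difference depended on single arrays: for ILMN_1236477 it was 0.27 without SPF replicate 1 and 0.70 without SPF replicate 2. For ILMN_3043469 it was 0.32 without SPF replicate 1, 0.38 without conventional replicate 2, 0.85 without conventional replicate 1 and 0.90 without SPF replicate 2, and it was 0.34 in the authors' normalized table.

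Artn, whose product is the ligand of the GFRA3 and RET complex on sensory neurons, was the only ligand gene detected on all 4 arrays, with weak signals. Probe ILMN_1254114 gave signals of 156.5 and 155.4 on the SPF arrays and of 134.4 and 125.8 on the conventional arrays, 1.20 to 1.52 times background. Both conventional arrays were below both SPF arrays. Its log2 difference was -0.60 ± 0.23, a 1.52-fold lower mean in conventional cord, with a 95% interval from -1.14 to -0.07 (limma, unadjusted p = 0.0319, adjusted p = 0.99996).

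The other detected Artn probe, ILMN_2941280, did not show this pattern. Its signals were 134.2 and 146.7 on the SPF arrays and 139.1 and 129.7 on the conventional arrays, so the groups overlapped. The difference was -0.10 ± 0.23 with an interval from -0.64 to 0.45, and its sign turned without SPF replicate 2 (0.01) and without conventional replicate 2 (0.08). The remaining Artn probes, ILMN_1223072 (92 to 104.8) and ILMN_2672725 (105.3 to 118.6), were detected on no array. The difference of ILMN_1254114 was also sensitive to the treatment of background: it was -0.23 without background correction and -0.10 in the authors' normalized table.

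Nrtn, which encodes the ligand neurturin, was at the edge of detection. Its signals were 121.4 and 132.4 on the SPF arrays and 122.7 and 118.9 on the conventional arrays, with detection on both SPF arrays and on 1 of 2 conventional arrays (detection value 0.0588 on conventional replicate 2). The groups overlapped, and the log2 difference was -0.14 ± 0.22 with a 95% interval from -0.64 to 0.37 (limma, unadjusted p = 0.543). It was -0.04 without SPF replicate 2 or without conventional replicate 2, and -0.02 in the authors' normalized table.

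Gdnf itself was hardly measured. Probe ILMN_2659994 gave 104.2 and 126.3 on the SPF arrays and 105.7 and 111.8 on the conventional arrays, and passed detection only on SPF replicate 2 (detection value 0.0321). Probe ILMN_2701617 ranged from 99.3 to 111.4 and was detected on no array. Both probes of Pspn, the persephin gene, were undetected throughout, with signals of 104.8 to 113.4 for ILMN_2773560 and 96.6 to 110.6 for ILMN_2825886. A transcript of low abundance, a transcript in few cells and a probe that binds poorly give the same reading.

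Among the co-receptors, only Gfra4, whose product binds persephin, was detected. Its probe gave signals of 270.4 and 248.1 on the SPF arrays and of 224 and 225 on the conventional arrays, 2.14 to 2.63 times background. Both conventional arrays lay below both SPF arrays. The log2 difference was -0.25 ± 0.20, a 1.19-fold lower mean, with an interval from -0.70 to 0.21 (limma, unadjusted p = 0.246, adjusted p = 0.99996). It was -0.15 without SPF replicate 1 and -0.09 in the authors' normalized table.

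Gfra1, the GDNF co-receptor of motor neurons, had 1 probe with signals of 103.6 and 112.2 on the SPF arrays and 106.3 and 104.5 on the conventional arrays, and no detection value below 0.285. The probe of Gfra2, the neurturin co-receptor, gave 102.5 and 108.3 on the SPF arrays and 89.6 and 88.2 on the conventional arrays. Those groups do not overlap, but the lowest detection value was 0.460, so both are within background and no fold is given. The 2 probes of Gfra3, the artemin co-receptor, ranged from 84.5 to 101 and from 97.8 to 104.5 and were detected on no array. Absence of detection on this platform does not show absence of a transcript: Snap25 and Nefl, abundant transcripts of neurons, also had probes detected on 0 of 4 arrays, 2 for Snap25 and 1 for Nefl.

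**Figure D2:**
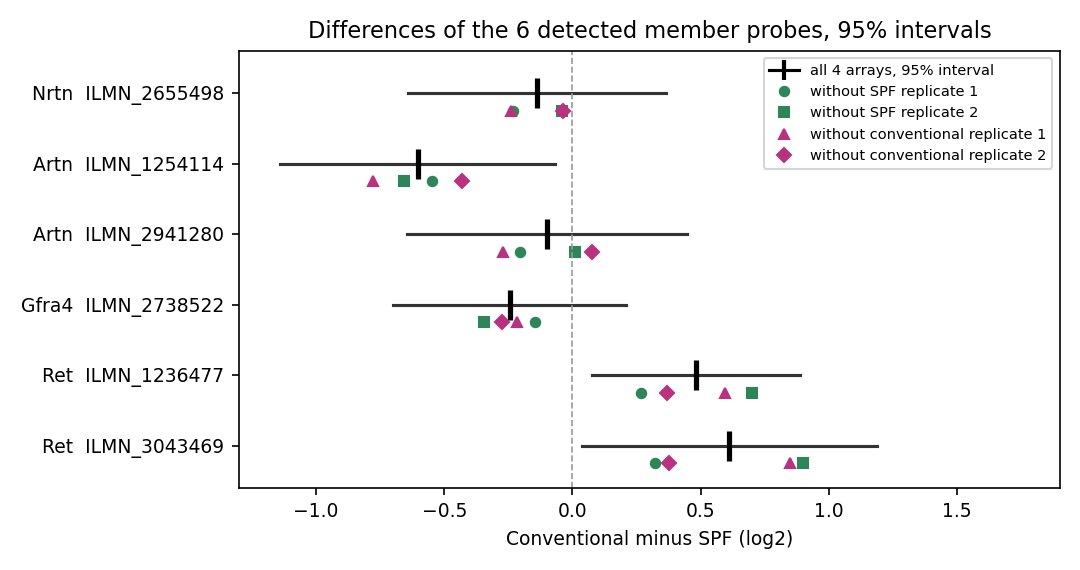
Conventional minus SPF difference (log2) of the 6 detected member probes, with the 95% interval of the model as a line and the estimate with each array left out as coloured points under it. The estimates of the 2 Ret probes lie above 0 in all fits shown, and those of Artn ILMN_2941280 fall on both sides of 0. The other ligand and co-receptor estimates lie below 0, but the intervals of Nrtn, Gfra4 and Artn ILMN_2941280 include 0.

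Across the 6 detected probes, 2 were higher and 4 lower in conventional cord. Of these, 2 (both Ret) had groups that did not overlap on the higher side, where 16.4% of all tested probes did, and 2 (Artn ILMN_1254114 and Gfra4) on the lower side, where 14.5% did. An unadjusted p under 0.05 was reached by 3 of the 6 in limma's fit, against 3.15% of all probes (1.45% higher and 1.70% lower). Probes of the same gene are not independent, and the members were not drawn at random, so these shares are a description. With 2 arrays against 2, an exact permutation test, two-sided, cannot go below p = 0.333, the value of each of the 4 probes without overlap.

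Ret is a gene of motor neurons, so its values are set beside markers of the cells the cord holds. Of 15 cholinergic and motor neuron genes, 12 were kept, and all 12 had a higher mean in conventional cord, 8 of them without overlap and 0 past the threshold. Over all 11476 genes, 50.7% had a higher mean and 16.3% were higher without overlap. This list and those below were chosen with earlier results of these data known. Their counts beside these shares are therefore a description and not a test. The median difference of the 12 genes was 0.45, against 0.00 over all genes. Over the 12 genes the summed normalized value was 4366 and 5688 on the SPF arrays and 5713 and 7295 on the conventional arrays, the same order of arrays as for Ret. SPF replicate 1 was the lowest array for 10 of the 12 genes, and conventional replicate 2 the highest for 10. Leaving out SPF replicate 2 gave a median of 0.77, leaving out SPF replicate 1 gave 0.25, and the authors' normalized table gave 0.25. Between 11 and 12 genes were higher with each array left out.

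Calcb, a gene for calcitonin gene-related peptide, had normalized log2 values of 6.65 and 7.05 on the SPF arrays and 7.29 and 7.93 on the conventional arrays, a difference of 0.76 ± 0.27. Slc5a7, the choline transporter gene, had 7.16 and 7.83 against 8.31 and 8.09, a difference of 0.71 ± 0.25. Calcb differed by 0.44 without conventional replicate 2 and by 0.28 in the authors' normalized table. Slc5a7 differed by 0.37 without SPF replicate 1, by 1.05 without SPF replicate 2 and by 0.33 in the authors' normalized table. Neither passed limma's test (adjusted p = 0.99996 for each). Mnx1, a homeobox gene of motor neurons, was detected on 0 arrays. The part of motor neuron content in the Ret difference was not tested, and in bulk RNA more cells of a type and more RNA per cell cannot be told apart.

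Markers of dorsal root ganglion neurons, which also express Ret, were nearly all dim. Of 13 genes, 11 were on the array and 2 were kept, the catecholamine enzyme gene Th (0.19 ± 0.38) and the sensory neuron transcription factor gene Pou4f1 (0.13 ± 0.22), and in both the groups overlapped. With single arrays left out, Th ranged from -0.36 to 0.74 and Pou4f1 from -0.08 to 0.34. The summed value of the 2 genes was 199.2 to 210.4 in SPF and 200.6 to 242.9 in conventional cord. Of the genes on the array but not kept, Trpv1, Trpa1, Scn11a, P2rx3, Mrgprd, Mrgpra3 and Nppb were detected on 0 arrays. Scn10a and Avil were detected on 1 array each.

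Of 7 kept general neuronal genes 4 were higher, with a median difference of 0.10 that ranged from 0.048 to 0.20 with each array left out. Markers of bordering tissues went the other way on the same arrays. All 12 meningeal fibroblast genes, all 8 kept skeletal muscle genes and all 5 kept red blood cell genes had lower means in conventional cord, with medians of -0.96, -0.94 and -1.05. Their summed values ranged from 8035 to 31434, from 828.4 to 3002 and from 29548 to 43143 in SPF, and from 5241 to 12086, from 571.0 to 1077 and from 13063 to 21194 in conventional cord. Without SPF replicate 2, 6 of the 12 meningeal genes were higher, and without conventional replicate 2, 5 were, with list medians between -1.97 and -0.020 over the 4 fits that left out an array. The muscle median was -0.20 without SPF replicate 1, where 2 of 8 genes were higher, -0.46 without conventional replicate 2, where 1 was, and -1.72 without SPF replicate 2. It was -0.27 in the authors' normalized table, where 1 gene was higher. The red blood cell median was -0.68 without conventional replicate 2, where 1 of 5 genes was higher. The part of these tissues in the Artn and Gfra4 differences was not tested. Of the kept glial genes, 0 of 9 for oligodendrocytes, 3 of 6 for their precursors and 6 of 10 for astrocytes were higher. For microglia 2 of 9 were higher, and for Schwann cells and nerve roots 1 of 6. The list medians were -0.08, 0.00, 0.04, -0.28 and -0.26. With each array left out they ranged from -0.32 to 0.14, -0.18 to 0.14, -0.08 to 0.13, -0.47 to -0.0015 and -0.47 to 0.11. The part of these cells was not tested either.

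**Figure D3:**
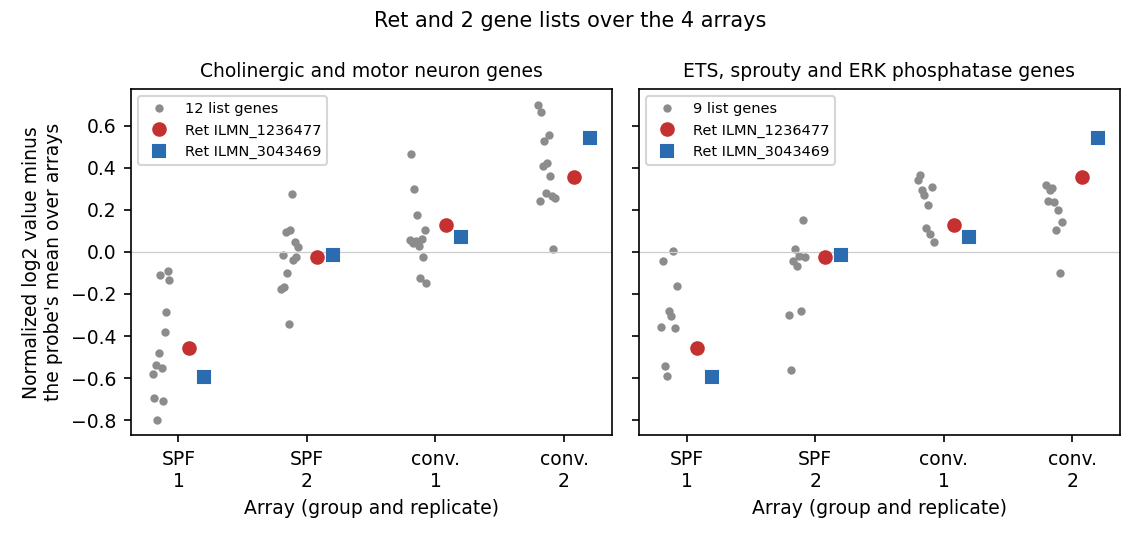
Normalized log2 value minus the probe's mean over the 4 arrays, for the 2 bright Ret probes (red circles and blue squares) and, in grey, the 12 kept cholinergic and motor neuron genes (left) or the 9 kept ETS, sprouty and ERK phosphatase genes (right). Ret is lowest on SPF replicate 1 and highest on conventional replicate 2. Of the 12 cholinergic genes 10 are lowest on the former and 10 highest on the latter array. Of the 9 genes on the right 7 are lowest on SPF replicate 1, 5 are highest on conventional replicate 1 and 4 on conventional replicate 2.

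The probes whose centred profile over the 4 arrays was nearest to that of Ret ILMN_3043469, the member probe with the largest difference, were sought among 17906 named probes. Likeness was the root mean square of the log2 differences, over 4 arrays. The nearest were Kcng4, a potassium channel subunit gene (0.035), Shh, which encodes sonic hedgehog (0.039), Scrt2, a neural zinc finger gene (0.043), Mfap3l (0.048) and Slc10a4, a transporter gene of cholinergic vesicles (0.052). The other bright Ret probe stood at rank 55, at 0.121. Conventional minus SPF differences of these 5 probes were 0.54 to 0.60 on the log2 scale, near that of Ret because of how the probes were chosen. Averaged over the kept probes of the gene, the difference was 0.72 for Kcng4, 0.43 for Shh and 0.31 for Mfap3l. The Shh probe was dim, at log2 values of 4.74 to 5.94. With single arrays left out, the differences of the 5 probes moved to between 0.25 (Kcng4, without SPF replicate 1) and 0.93 (Shh, without SPF replicate 2). In the authors' normalized table they lay between 0.096 (Shh) and 0.40 (Kcng4). With 4 arrays and this many probes, close profiles are a description and no test was made.

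Partners that modify the receptor complex were mostly detected. Of 6 such genes 4 were kept, with 3 higher, 1 lower, 0 past the threshold and a median difference of 0.15. Sorl1, whose product sorts GDNF and GFRA1, differed by 0.29 ± 0.19, with overlapping groups, and by 0.07 without SPF replicate 1 and 0.09 without conventional replicate 2. Lrig1, a negative regulator of RET, differed by 0.23 ± 0.12 and was above the SPF arrays on both conventional arrays, with 0.15 without SPF replicate 2. Ncam1, an alternative signalling receptor for GDNF with GFRA1, differed by -0.16 ± 0.15, and its 3 other probes by -0.12, 0.01 and 0.00. Of the listed genes that were not kept, Gfral was detected on 0 arrays and Gdf15 had no probe.

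Adaptors and kinases that act downstream of RET lay on both sides of 0. Of 30 genes 19 were kept, 10 higher and 9 lower, with a median difference of 0.02 and 0 past the threshold. In 5 of them both conventional arrays were above both SPF arrays, and in 0 below, where 16.3% and 15.2% of all genes did so. These counts use 1 probe per gene. Further probes of Src (0.47 ± 0.21), Mapk8 (0.42 ± 0.24), Stat3 (0.31 ± 0.14) and Dok5 (0.11 ± 0.20) were higher without overlap. Their counted probes gave 0.12, 0.02, -0.02 and 0.16. The other further probes in this list overlapped, among them Mapk8 at -0.13. By the counted probe, the largest differences were those of Map2k1, which encodes the ERK-activating kinase MEK1 (0.57 ± 0.37), and Shc3, a neuronal adaptor (0.31 ± 0.26). Cbl, a ubiquitin ligase that acts on RET, came next (0.31 ± 0.20, detected on 2 arrays). Map2k1 overlapped between the groups and differed by 0.01 without SPF replicate 2 and by 1.12 without SPF replicate 1. Shc3 also overlapped and differed by 0.08 without SPF replicate 1. In the authors' normalized table the differences of Map2k1, Shc3 and Cbl were 0.10, 0.05 and 0.05.

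Genes of the ETS, sprouty and dual-specificity phosphatase families, which ERK signalling from RET and from many other receptors induces, lay on the higher side throughout. Of 12 genes 9 were kept, and all 9 had higher means in conventional cord. In 8 of the 9 the groups did not overlap, where 16.3% of all genes did so in this direction. The exception, named after its values were seen, was Dusp6. The median difference was 0.35, against 0.00 over all genes, and 0 passed the threshold. It was 0.18 in the authors' normalized table, where 9 of 9 were again higher. Between 8 and 9 genes were higher with each array left out. These counts use 1 probe per gene. The further probes of Etv1 (0.12 ± 0.24 and 0.18 ± 0.25) and of Dusp6 (0.01 ± 0.29) had overlapping groups. As this list was chosen with earlier results of these data known, its counts are a description. Summed normalized values were 4298 and 4891 on the SPF arrays and 5613 and 5442 on the conventional arrays.

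Etv5, an ETS transcription factor gene that acts downstream of RET in the mouse kidney, had log2 values of 7.55 and 7.61 on the SPF arrays and 8.25 and 8.22 on the conventional arrays. Both conventional arrays were above both SPF arrays, and the difference was 0.66 ± 0.17 (limma, unadjusted p = 0.00503, adjusted p = 0.99996). A further Etv5 probe gave 0.54 ± 0.19, also without overlap, and the first probe ranged from 0.63 to 0.68 with each array left out and was 0.32 in the authors' normalized table. Spry4, an inhibitor of signalling from receptor tyrosine kinases, had 5.62 and 5.10 against 6.03 and 5.90, a difference of 0.61 ± 0.25. It was 0.35 without SPF replicate 2, 0.23 without background correction and 0.099 in the authors' normalized table. Dusp4, a gene for a dual-specificity phosphatase that acts on MAP kinases, differed by 0.59 ± 0.24. Its further probes gave 0.70 ± 0.22 and -0.02 ± 0.21, and its first probe gave 0.34 without SPF replicate 1, 0.31 without background correction and 0.16 in the authors' normalized table. These genes respond to many receptors, and the part of RET in their values was not tested. Of 9 kept endothelial genes 7 were higher on the same arrays, 5 without overlap, where 50.7% and 16.3% of all genes were. Their median was 0.25. That median was 0.16 without SPF replicate 1 and 0.082 in the authors' normalized table. Their summed values were 7595 and 8959 on the SPF arrays and 9757 and 10146 on the conventional arrays, and the part of vessels was not tested either.

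**Figure D4:**
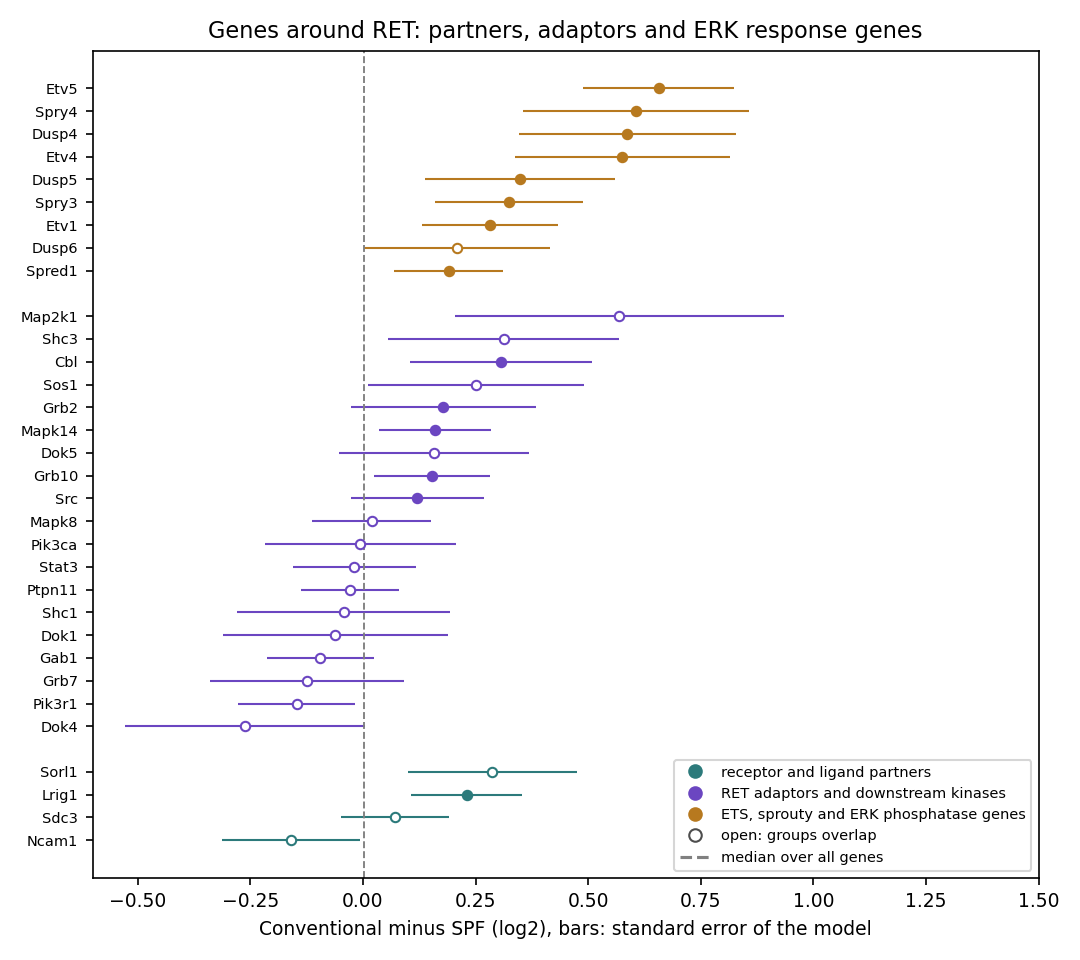
Conventional minus SPF difference (log2) with the standard error of the model for the kept genes of 3 lists around RET, filled where the groups do not overlap. The 9 ETS, sprouty and ERK phosphatase genes at the top all lie above the median over all genes (dashed), while the 19 adaptors and kinases lie on either side of it.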

How the data were processed

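Per the file headers, the deposited file pairs the non-normalized intensity of each bead type, on a linear scale, with a detection p-value. The authors' value table, an alternative here, holds normalized intensity values. Lumi is named in the submitters' processing notes, and how it was set, the scanner software and any build are not given in these sources. Probes were named through the platform annotation (34885 with 1 symbol, 18 with several, 10378 with none). RefSeq GRCm38.p6 gene numbers matched 34807 probes and changed 0 symbols.

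Signals were background-corrected from the detection p-values, quantile normalized and log2 transformed with neqc (limma 3.58.1, R 4.3.3, offset 16). Probes detected on at least 2 of 4 arrays were kept (21065). Each probe was fitted by lmFit and tested two-sided by eBayes with a variance trend, and p-values were adjusted by Benjamini-Hochberg, with a threshold of 0.05. The fit was tested on simulated data. A list was described by 1 kept probe per gene, that with the highest mean. Named genes were all members, the 3 list genes with the largest difference around RET, up to 2 per marker list, and the 5 nearest profiles. Dusp6, Etv1, Src, Mapk8, Stat3, Dok5, Lcn2 and Erdr1 were named besides, and so were some genes that were not kept. Members and lists were chosen with earlier results of these data known. Group and replicate came from titles. The number of arrays limits the precision. The labels and files give no batch.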

Additional observations from a re-analysis of the deposited data

How the results depend on the processing

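The count of probes past the threshold in limma's test was 0, with 663 at an unadjusted p under 0.05 and a lowest adjusted p of 0.535. The same replicate numbers in both groups gave deviations that correlated at 0.217 over probes. Arrays that share a replicate number correlated at 0.9896 (replicates 1) and 0.9878 (replicates 2), against 0.9851 within SPF and 0.9865 within conventional. The labels do not say that samples are paired, and 2 pairs cannot settle it, so the main fit has no block. With the replicate number as a block, 14 probes passed and 1779 had an unadjusted p under 0.05. Of the 14, 0 were members. For Ret ILMN_1236477 and ILMN_3043469 limma's fit with the block gave unadjusted p-values of 0.00171 and 0.00161 (adjusted p = 0.331 for each). That fit leaves little spread of a probe's own, so its p-values rest mostly on variance borrowed from other probes. Without a filter on dim probes, 1629 of 45281 had an unadjusted p under 0.05. With each array left out, 0 to 2 probes passed and 557 to 1022 had an unadjusted p under 0.05. The lone array left in a group is then assumed to vary like the others. The 2 probes, chosen after their values were seen, were those of Lcn2 and Erdr1, without conventional replicate 2. Without SPF replicate 2 the unadjusted count was 1022.

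Both Ret probes kept their direction under all alternatives run. Under other processing the single probes lay at 0.41 to 0.48 and 0.34 to 0.61, and the mean of both at 0.55. With each array left out the single probes lay at 0.27 to 0.70 and 0.32 to 0.90. Artn ILMN_1254114 ranged from -0.64 to -0.10 and Gfra4 from -0.30 to -0.09 under other processing, and from -0.78 to -0.43 and -0.34 to -0.15 with each array left out. Nrtn ranged from -0.14 to -0.02 and from -0.24 to -0.04. Artn ILMN_2941280 ranged from -0.27 to 0.077 with each array left out and turned to 0.0092 and 0.077 without SPF replicate 2 and without conventional replicate 2. Signs also turned for Ncam1 (0.021 without SPF replicate 1), Th (-0.36 without SPF replicate 2, -0.070 without conventional replicate 1, within -0.36 to 0.74) and Pou4f1 (-0.078 without SPF replicate 1). The causes were not tested. At a detection p under 0.01, SPF replicates 1 and 2 had 4 and 5 detected member probes in place of 6 and 7. Conventional replicates 1 and 2 had 5 and 3 in place of 7 and 5. List medians ranged, with each array left out, from 0.046 to 0.16 for receptor partners, from 0.0076 to 0.10 for adaptors and kinases and from 0.27 to 0.47 for ETS, sprouty and ERK phosphatase genes. The last was 0.18 in the authors' table. Counts of higher genes in these lists, an alternative chosen after seeing the data, stayed within 1.5 times of those reported. Detection on 6 of 17 member probes limits what can be said of the other 11.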
